A study of Astyanax mexicanus with 18 samples.

Results

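The genes described here are triap1 (ENSAMXG00000034513) and NEK3 (ENSAMXG00000009911), 2 of 27420 genes listed in a table of liver transcript levels from the fish Astyanax mexicanus. They were taken by name, and the names were chosen because the level after a meal had moved differently in the 2 populations of the study. Levels after the meal and the difference between the populations' changes are therefore given as a description, with no test. Where threshold calls of these genes on that difference are mentioned, they only restate the choice. Liver polyA RNA was sequenced from surface fish, the eyed river form, and from Pachón cavefish, a blind cave form of the same species, all at an age of 4 months. All fish had been fasted for 4 days. The starved groups were dissected then, and the refed groups 3 hours after 1 meal of 10 mg of feed. This gives 4 groups of 3 libraries each, and the labels speak of 3 refed fish in each population. The labels used here name no sex, and the fish were raised under 1 husbandry scheme.

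The protein made by triap1 is a small one of the space between the mitochondrial membranes. In human cells it pairs with PRELID1 to carry phosphatidic acid to the inner membrane, where cardiolipin, the lipid that marks that membrane, is made. The human gene is a target of p53, and its product has also been described as a brake on the apoptosome, the complex that starts caspase activity. NEK3 encodes a kinase of the NIMA-related (NEK) family, whose members act in mitosis, at centrosomes and in cilia. In human breast cancer cells it acts downstream of the prolactin receptor, and in mouse neurons it has been tied to the acetylation of microtubules.

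Levels are given in TPM, a measure per transcript length that the authors deposited for each gene and library and that is scaled to 1 fixed total. TPM do not record how deeply a library was sequenced, so depth is unknown here. From 10952 to 12123 genes in a library were at 1 TPM or more, and the 10 most abundant genes held 24.9% to 32.8% of the TPM. Of 21 hepatocyte marker symbols 17 were listed, of which apoa1a was at 0 in at least 1 library, with summed levels of 224371 to 268953 TPM in 11 libraries and 127572 TPM in Surface_starved replicate 2. That library also held 4203 TPM of the yolk precursor gene vtg3, against 0.2 to 18.4 TPM in the 11 others. Over the 12 libraries, triap1 averaged 13.6 TPM, above 74.3% of the 13157 tested genes, and NEK3 2.54 TPM, above 31.2%. In bulk liver, a change in the number of cells of a type and a change of RNA per cell cannot be told apart.

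Levels of triap1 were near each other in the surface groups and far apart in the cavefish groups. In starved surface fish the libraries held 9.27, 12.4 and 15.1 TPM, and in refed surface fish 12.9, 9.24 and 10.7 TPM. These libraries overlapped, with means of 12.3 ± 2.91 and 10.9 ± 1.84 TPM (SD, n = 3). In starved Pachón cavefish the libraries held 4.62, 6.12 and 4.34 TPM, and in refed Pachón cavefish 32.6, 21.7 and 24.1 TPM. All 3 refed cavefish libraries lay above all other libraries, and all 3 starved cavefish libraries lay below all others. In cavefish, 35.7% of tested genes had refed libraries that were all higher than the starved ones. The cavefish means were 5.03 ± 0.957 TPM before and 26.1 ± 5.71 TPM after the meal, a ratio of 5.20. The order of the groups was therefore starved Pachón, then the surface groups, which did not differ beyond their spread, then refed Pachón.

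On the log2(TPM + 1) scale, which understates changes of low genes, the change of triap1 after the meal was -0.14 ± 0.24 (SE) in surface fish and 2.16 ± 0.24 in Pachón cavefish. The difference between the changes was 2.30 ± 0.33. The median over all tested genes was -0.038 in surface fish, 0.17 in cavefish and 0.29 for the difference, so that triap1 stood 1.99 above the cavefish median and 2.01 above the median difference. Between populations, triap1 was lower in starved cavefish than in starved surface fish by 1.13 ± 0.24 on this scale (-1.13), and higher in refed cavefish by 1.18 ± 0.24. Leaving out each library in turn gave 2.00 to 2.29 for the cavefish change. For the surface change the same gave -0.31 to 0.011, and without Surface_starved replicate 3 the sign turned.

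NEK3 moved in opposite directions in the 2 populations. In starved surface fish the libraries held 2.25, 2.06 and 2.08 TPM, and in refed surface fish 0.34, 0.37 and 0.23 TPM. Every refed surface library lay below every other library. In starved Pachón cavefish the libraries held 1.77, 2.14 and 2.74 TPM, and in refed Pachón cavefish 4.72, 7.18 and 4.56 TPM. Every refed cavefish library lay above every other library, while the starved groups of the populations overlapped. Group means were 2.13 ± 0.104 and 0.313 ± 0.074 TPM in starved and refed surface fish, a level 6.80 times as high before the meal, and 2.22 ± 0.490 and 5.49 ± 1.47 TPM in cavefish (SD, n = 3), 2.48 times as high after it. Among refed fish the cavefish mean was 17.5 times the surface mean, and among starved fish 1.04 times. In surface fish 17.8% of tested genes had refed libraries that were all lower than the starved ones, and in cavefish 35.7% had refed libraries that were all higher.

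**Figure D1:**
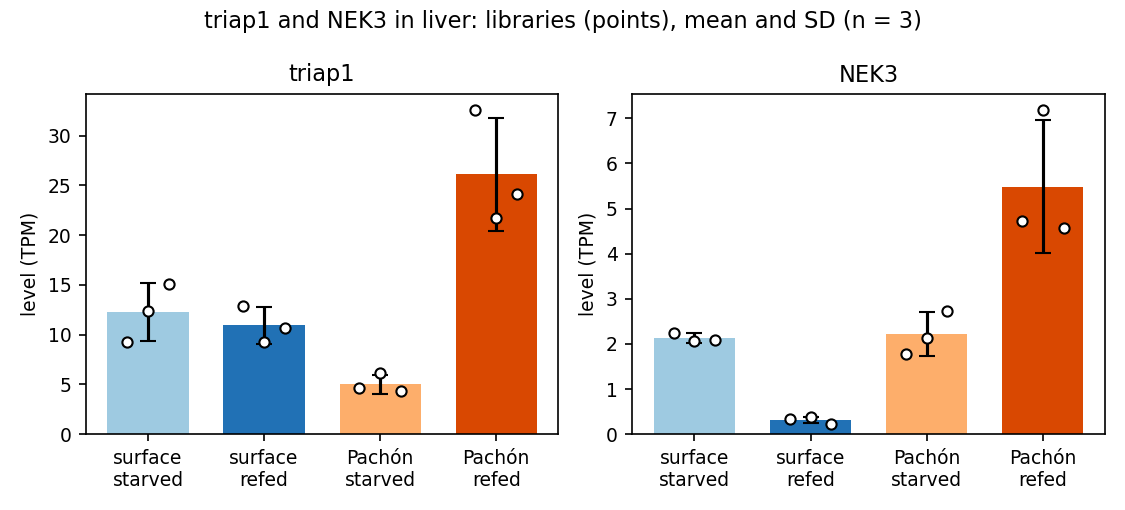
Level in TPM of triap1 (left) and NEK3 (right) in each of the 4 groups, with points for the 3 libraries, bars for the mean and whiskers for the SD. For triap1 the starved Pachón libraries are the lowest (4.34 to 6.12 TPM) and the refed Pachón libraries the highest (21.7 to 32.6 TPM). For NEK3 the refed surface libraries are the lowest (0.23 to 0.37 TPM) and the refed Pachón libraries the highest (4.56 to 7.18 TPM).

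On the log2(TPM + 1) scale, NEK3 changed after the meal by -1.25 ± 0.18 in surface fish and by 1.00 ± 0.18 in cavefish, a difference of 2.25 ± 0.26. Relative to the medians over all tested genes these were -1.22, 0.83 and 1.97. With 0.1 TPM added in place of 1 TPM, the surface change was -2.45 and the difference 3.71, since NEK3 is near the added 1 TPM in refed surface fish. Leaving out each library in turn gave 2.07 to 2.37 for the difference. Across the 12 libraries the 2 genes were not closely alike, with Pearson r of 0.43 and Spearman rho of 0.39.

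In a limma fit across all 13157 tested genes, 9 genes (0.0684%) had a difference in meal change at an adjusted p under 0.05, 8 with the larger value in cavefish (0.0608%) and 1 with the smaller (0.0076%). NEK3 and triap1 are among them, which is how they came to be chosen, and nothing further is read from it. The only other one with a symbol was znf326, a zinc finger gene, with a difference of 2.31 ± 0.33. Its levels were 0.227 ± 0.136 and 4.27 ± 1.11 TPM in starved and refed cavefish, and 0.327 ± 0.429 and 0.1 ± 0.096 TPM in surface fish. It reached 1 TPM in the 3 refed cavefish libraries only, so it came to be tested through the group where it is high. The next 3 genes outside that threshold, named after their values were seen, were slc25a26, a mitochondrial carrier gene, with a difference of 2.51 ± 0.42, slc25a12, another one, with 1.94 ± 0.32, and ENSAMXG00000019231, which has no symbol, with -1.83 ± 0.31. In the order of the difference over the 10238 tested genes with a symbol, triap1 was number 39, between znf326 and fkbp5 (2.29 ± 1.86), and NEK3 number 43, between cry4 (2.26 ± 0.85) and sik2b (2.23 ± 0.80). The threshold was passed by triap1 in 2 and by NEK3 in 7 of the 12 fits with 1 library left out. These fits reuse the values that chose both genes, so the counts give no support. With 1 library left out the number of genes past the threshold ran from 0 to 55, with 55 without Surface_starved replicate 1.

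**Figure D2:**
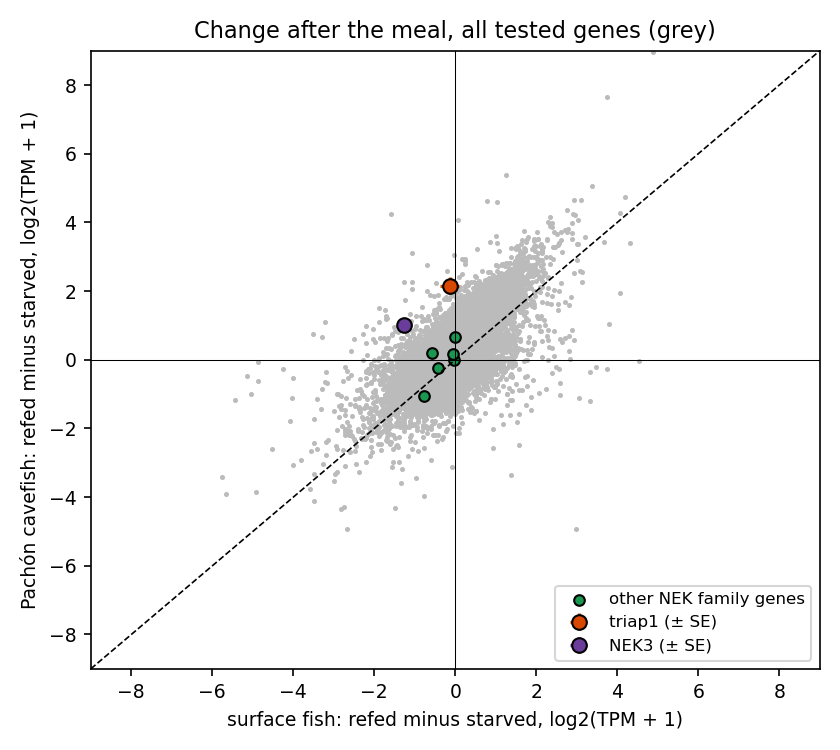
Change after the meal in surface fish (x axis) against that in Pachón cavefish (y axis), both as refed minus starved on the log2(TPM + 1) scale, for 13157 tested genes in grey, with the dashed line marking equal change. NEK3 lies at -1.25 and 1.00 and triap1 at -0.14 and 2.16, both above the line, with whiskers for the SE, while the other NEK family genes lie nearer to it.

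With 3 libraries in every group, the population difference averaged over both feeding states is orthogonal to the contrasts that chose these genes, and it was tested. With 1 library left out or with library weights it is not orthogonal to them. It uses the same 12 values and the residual spread that also entered the choice, so its p-values are not free of that choice. It gives no support to the difference in meal change. In this comparison 23% of all tested genes were called, 13.1% higher in cavefish and 9.86% lower. NEK3 was higher in Pachón cavefish by 1.16 ± 0.13 on the log2(TPM + 1) scale (limma adjusted p = 0.000106), with adjusted p up to 0.000479 when 1 library was left out. The starved groups of the 2 populations overlapped for NEK3, with a difference of 0.029 ± 0.18, and the refed groups stood 2.28 ± 0.18 apart, so that the averaged value comes nearly all from the refed fish. For triap1 the averaged difference was 0.026 ± 0.17 (limma adjusted p = 0.932), with a sign that depended on the scaling and on single libraries. Its differences in the starved and refed states, -1.13 and 1.18, were of opposite sign.

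The other NEK genes were taken by name as a background for NEK3. With case ignored, 10 other names matched, of which 6 passed the filter of at least 1 TPM in at least 3 libraries. Those below it were nek4 (0.503 TPM on average), nek11 (0.305 TPM), NEK5 (0.09 TPM) and nek12 (0.0167 TPM). After the meal none of the 6 was called in surface fish by limma, where 18.7% of all tested genes were. In surface fish 1 had an unadjusted p under 0.05, as did 4350 of all 13157 tested genes. In cavefish 1 rose, where 30.6% of all tested genes were called and 22.9% rose. No family member was called for the difference in meal change, where 0.0684% of all tested genes were. For that difference 2 had an unadjusted p under 0.05, as did 2176 of all 13157 tested genes. The median change of the 6 NEK genes was -0.24 in surface fish and 0.09 in cavefish, beside medians of -0.038 and 0.17 over all tested genes.

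The gene that rose was nek1, whose kinase acts at cilia and in the DNA damage response. Its libraries held 0.81, 0.66 and 0.53 TPM in starved and 1.70, 1.78 and 1.47 TPM in refed cavefish, a change of 0.67 ± 0.17 (limma adjusted p = 0.0101). These 3 refed libraries are the only ones in which nek1 reached 1 TPM, so it came to be tested through the group where it is high. With no filter on low values the adjusted p of limma was 0.00811. In surface fish nek1 stood at 0.420 ± 0.095 and 0.417 ± 0.232 TPM, a change of -0.015 ± 0.17 (limma adjusted p = 0.969). The difference between these changes was 0.69 ± 0.23 and was not called (limma adjusted p = 0.209). Averaged over feeding states, nek1 was higher in cavefish by 0.57 ± 0.12 (limma adjusted p = 0.00494), a difference that the same filter favoured (0.00348 with no filter). The mitotic kinase gene nek7 was lower in cavefish, at -0.81 ± 0.14 (limma adjusted p = 0.00191), with 1.36 to 2.5 TPM in the 6 surface libraries and 0.33 to 1.08 TPM in the 6 cavefish libraries. It passed the filter through the surface libraries, where it is high, and its limma adjusted p was 0.0036 with no filter.

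The other NEK genes gave no call. For nek8, a kinase of the cilium, refed surface libraries held 0.81, 0.34 and 0.48 TPM, all below the starved ones at 0.99, 1.87 and 1.07 TPM. Refed surface libraries were all below the starved ones for 17.8% of tested genes. The surface change of nek8, -0.57 ± 0.20, missed the threshold (limma adjusted p = 0.0623), and passed it with 0.1 TPM added or without Surface_refed replicate 1. NEK9, an activator of NEK6 and NEK7 in human cells, ranged from 2.06 to 4.22 TPM over all libraries with changes of -0.030 ± 0.20 and 0.0052 ± 0.20. Changes of nek6 were -0.43 ± 0.24 and -0.23 ± 0.24. The centrosomal kinase gene nek2 stood at 50.2 TPM in Surface_starved replicate 2, at 0.11 and 5.05 TPM in the other starved surface libraries and at 0.08 to 6.16 TPM elsewhere, with SE of 1.05 for each change.

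**Figure D3:**
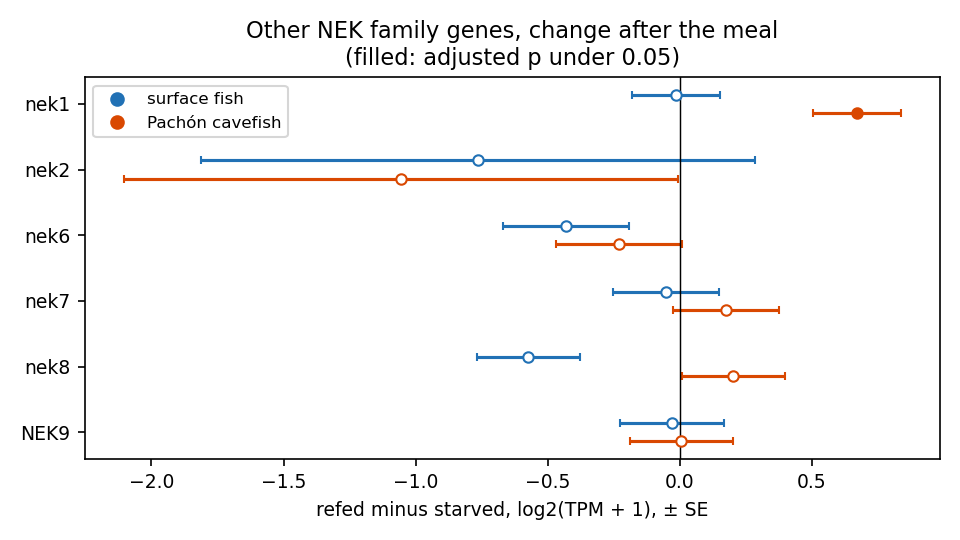
Change after the meal (x axis, refed minus starved on the log2(TPM + 1) scale, with SE) of the 6 other tested NEK family genes in surface fish (blue) and Pachón cavefish (orange). Only the cavefish change of nek1, at 0.67, is filled, which marks an adjusted p under 0.05.

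Genes around the known roles of triap1 were taken from lists by symbol. Of 17 listed genes for its partners, cardiolipin synthesis and inner membrane proteins, 14 were tested. In Pachón cavefish 7 of the 14 rose, 2 fell and 5 were not called, where among all tested genes 22.9% rose and 7.64% fell. The median of this list was 0.80 in cavefish, beside 0.17 over all tested genes, and 0.18 in surface fish, beside -0.038. In surface fish 1 rose, 1 fell and 12 were not called, where among all tested genes 9.03% rose and 9.68% fell. The 2 surface calls became 1 without Surface_refed replicate 3 or Surface_starved replicate 1, and 4 without Surface_starved replicate 2. For the difference in meal change 0 of 14 were called by limma, where 0.0684% of all tested genes were. At an unadjusted p under 0.05 there were 7 of the 14, and 2176 of all 13157 tested genes.

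Cardiolipin synthase gene crls1, the last step of the pathway, stood at 18.9 ± 3.46 and 19.7 ± 2.57 TPM in starved and refed surface fish and at 7.71 ± 2.26 and 21.6 ± 1.35 TPM in cavefish (SD, n = 3). It rose in cavefish by 1.41 ± 0.22 (limma adjusted p = 0.000927), and its difference in meal change was 1.34 ± 0.32 (limma adjusted p = 0.138). The earlier steps pgs1 and ptpmt1 rose in cavefish by 0.88 ± 0.21 and 1.26 ± 0.27. The inner membrane scaffold genes phb, stoml2 and opa1 rose in cavefish by 1.81 ± 0.27, 1.62 ± 0.22 and 1.42 ± 0.21. By contrast prelid1a, the gene of the partner with which human triap1 carries phosphatidic acid, fell in cavefish by 1.49 ± 0.42, from 145 ± 14.6 to 51.0 ± 8.12 TPM (limma adjusted p = 0.0197). This call ended without Pachon_refed replicate 1 or Pachon_starved replicate 1 or 3 (adjusted p up to 0.0724). In surface fish prelid1a stood at 101 ± 55.9 and 77.3 ± 27.2 TPM. CDS1, which makes CDP-diacylglycerol, fell in both populations, by 2.13 ± 0.37 in surface fish and 1.997 ± 0.37 in cavefish. The genes crls1, pgs1, ptpmt1 and prelid1a were picked from the list after their values were seen.

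**Figure D4:**
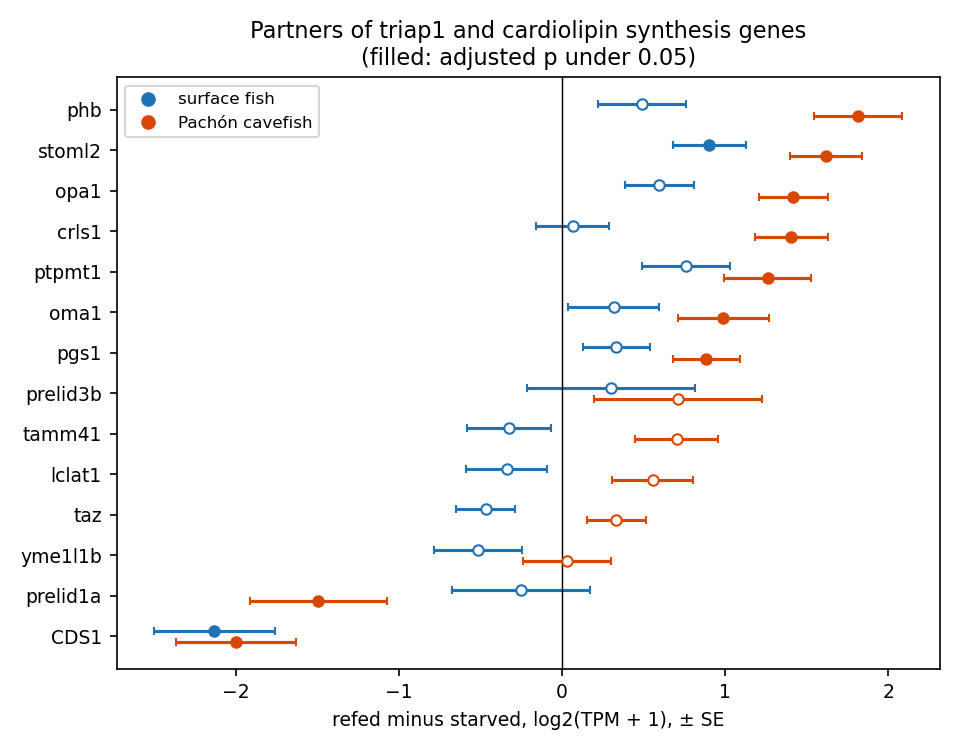
Change after the meal (x axis, refed minus starved on the log2(TPM + 1) scale, with SE) of 14 tested genes for triap1 partners, cardiolipin synthesis and inner membrane proteins, in surface fish (blue) and Pachón cavefish (orange). Filled points have an adjusted p under 0.05. These are 9 in cavefish, from phb at 1.81 down to CDS1 at -1.997, and 2 in surface fish.

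Of the p53 list, 29 genes were tested, and 1 rose and 4 fell in surface fish, against 2 and 5 in cavefish. Over all tested genes 18.7% were called in either direction in surface fish and 30.6% in cavefish. By direction, 9.03% rose and 9.68% fell in surface fish, and 22.9% rose and 7.64% fell in cavefish. Its median was -0.30 in surface fish and 0.00 in cavefish, beside -0.038 and 0.17 over all tested genes. Among its members foxo3a rose in both populations, by 2.29 ± 0.42 in surface fish and 2.09 ± 0.42 in cavefish. Both tp53inp1 (-3.49 ± 0.72 and -2.44 ± 0.72) and tigara (-0.92 ± 0.20 and -0.84 ± 0.20) fell in both. These calls had limma adjusted p of 0.0247 or lower. That of tp53inp1 in cavefish ended in some fits with 1 library left out (adjusted p up to 0.104). The growth arrest gene gadd45aa fell by 1.54 ± 0.29 in surface fish (limma adjusted p = 0.00531). The DNA damage sensor gene ddb2 fell by 1.47 ± 0.36 in cavefish (limma adjusted p = 0.00955). In the other population the mean of each was also lower after the meal, but the libraries overlapped. The 7 cavefish calls of this list became 3 without Pachon_refed replicate 1 and 4 without Pachon_starved replicate 2 or 3. The apoptosome list also holds BCL2 family and chaperone genes, which are counted with it. Of its 18 tested genes, 4 rose and 2 fell in surface fish and 6 rose and 2 fell in cavefish. All tested genes gave 9.03% and 9.68% in surface fish, and 22.9% and 7.64% in cavefish. Cytochrome c gene cycsb rose in both populations, by 2.15 ± 0.42 and 3.22 ± 0.42, and the HSP70 family genes hspa4a and hspa4b rose by 2.61 ± 0.35 and 2.45 ± 0.35 in surface fish and by 3.48 ± 0.35 and 3.74 ± 0.35 in cavefish. The apoptosis gene bada fell by 2.08 ± 0.33 and 2.32 ± 0.33. These 4 genes had limma adjusted p of 0.00628 or lower. The apoptosome scaffold gene apaf1 was below the filter, at 0.359 TPM on average.

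For NEK3, the lists held prolactin receptor signalling, tubulin acetylation, the primary cilium and mitosis. The prolactin receptor genes prlra and prlrb were below the filter, at 0.691 and 0.0125 TPM on average. Of 15 tested genes of that list 1 fell in surface fish, and 1 rose and 3 fell in cavefish. Among all tested genes 9.03% rose and 9.68% fell in surface fish, and 22.9% rose and 7.64% fell in cavefish. The list had medians of -0.14 and -0.18, beside -0.038 and 0.17 over all tested genes. The feedback inhibitor gene socs2 fell by 2.97 ± 0.53 and 3.32 ± 0.53 in the 2 populations (limma adjusted p of 0.00414 or lower). The 1 surface call became 4 without Surface_refed replicate 1 and 2 without Surface_refed replicate 2 or Surface_starved replicate 3, and the 4 cavefish calls became 2 without Pachon_refed replicate 1 or Pachon_starved replicate 1. Of the tubulin acetylation list 2 genes were tested, sirt2 and hdac6, with 1 called lower and 1 not called in each population. Medians of this list were -0.44 and -0.042, so that hdac6, which was not called, went the other way from sirt2. In cavefish 2 of the 2 had an unadjusted p under 0.05, as did 5404 of all 13157 tested genes. Tubulin deacetylase gene sirt2 fell in surface fish by 1.03 ± 0.22 (limma adjusted p = 0.00871), a call that ended with only the 6 surface libraries fitted (adjusted p = 0.0635). In cavefish its change was -0.68 ± 0.22 (limma adjusted p = 0.0333), and this call ended in 5 of the 12 fits with 1 library left out.

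Of 27 tested primary cilium genes 0 rose and 8 fell in surface fish, and 4 rose and 6 fell in cavefish. The shares over all tested genes were 9.03% and 9.68% in surface fish and 22.9% and 7.64% in cavefish. Among the 4 that rose in cavefish was arl3, with a change of 2.15, from 3.07 ± 2.33 to 15.5 ± 4.92 TPM. A further entry, ARL3 (1 of many), changed by -2.42 in surface fish and -0.87 in cavefish. Intraflagellar transport gene ift52 fell by 0.88 ± 0.16 in surface fish and 0.63 ± 0.16 in cavefish (limma adjusted p = 0.00438 and 0.0118), and kifap3a, a subunit of its motor, fell by 1.12 ± 0.17 in surface fish (limma adjusted p = 0.00187). The first reached 1 TPM in the 6 starved and 1 of 6 refed libraries and the second in the 6 starved libraries only, so both were tested through the state where they are high. The same holds for IFT43 and ift22, called lower in both populations and at 1 TPM in the 6 starved libraries only. The filter therefore favoured falls in this list, and its counts and medians are a description. With no filter the limma adjusted p of the surface changes were 0.00873 for ift52, 0.00412 for kifap3a, 0.0364 for IFT43 and 0.0228 for ift22. The 8 surface calls became 4 without Surface_refed replicate 1 and 5 without Surface_starved replicate 2, and the 10 cavefish calls became 5 without Pachon_refed replicate 1 and 6 without Pachon_refed replicate 2. Medians were -0.39 and -0.35 in surface fish and cavefish, beside -0.038 and 0.17 over all tested genes. Only 4 of 30 listed mitosis genes were tested, and 0 were called by limma in either population or for the difference, with 0 at an unadjusted p under 0.05, and without Surface_starved replicate 2 there was 1 call in each population. Of 109 tested genes in all lists, 0 were called by limma for the difference in meal change, where 0.0684% of all tested genes were. An unadjusted p under 0.05 was found for 20 of the 109, and for 2176 of all 13157 tested genes.

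Genes with a profile most like that of each gene were ranked over 9555 tested genes with a symbol and a mean of at least 1 TPM over the 12 libraries, by Pearson r of log2(TPM + 1) across the 12 libraries. These libraries share the 4 groups, so the values are a description. Most like triap1 were mrps21 (r = 0.96, Spearman rho = 0.95), si:ch211-282b22.1 (0.96, rho = 0.97), trap1 (0.95, rho = 0.94), coa3a (0.94, rho = 0.92) and mrps11 (0.94, rho = 0.94). Of these, mrps21 and mrps11 encode mitochondrial ribosomal proteins, trap1 a mitochondrial chaperone and coa3a an assembly factor of cytochrome c oxidase. Levels of mrps21 were 77.4 ± 17.1 TPM before and 81.9 ± 5.91 TPM after the meal in surface fish, against 38.4 ± 12.4 and 131 ± 23.0 TPM in cavefish. Least like triap1 were vps8 (-0.93, rho = -0.91), acap3b (-0.92, rho = -0.89) and kctd7 (-0.91, rho = -0.86). The endosomal tethering gene vps8 stood at 22.6 ± 1.40 and 10.2 ± 2.75 TPM in starved and refed cavefish and at 14.3 ± 2.13 and 13.7 ± 2.07 TPM in surface fish.

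Most like NEK3 were asl (r = 0.95, Spearman rho = 0.89), foxa2 (0.92, rho = 0.80), slc20a2 (0.92, rho = 0.90), pnpla7b (0.92, rho = 0.87) and ACVR2A (1 of many) (0.91, rho = 0.77). The urea cycle gene asl stood at 3.55 ± 0.671 and 1.59 ± 0.119 TPM in starved and refed surface fish and at 4.82 ± 0.245 and 6.51 ± 0.949 TPM in cavefish. The liver transcription factor gene foxa2 stood at 49.8 ± 4.64 and 30.3 ± 2.80 TPM in surface fish and at 57.1 ± 17.3 and 69.5 ± 4.36 TPM in cavefish. Least like NEK3 were sipa1l1 (-0.94, rho = -0.94), si:ch211-253b8.5 (-0.92, rho = -0.91) and si:ch211-153b23.5 (-0.91, rho = -0.91). The Rap regulator gene sipa1l1 stood at 3.4 ± 0.736 and 6.24 ± 0.756 TPM in surface fish and at 3.54 ± 0.545 and 2.59 ± 0.187 TPM in cavefish.

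**Figure D5:**
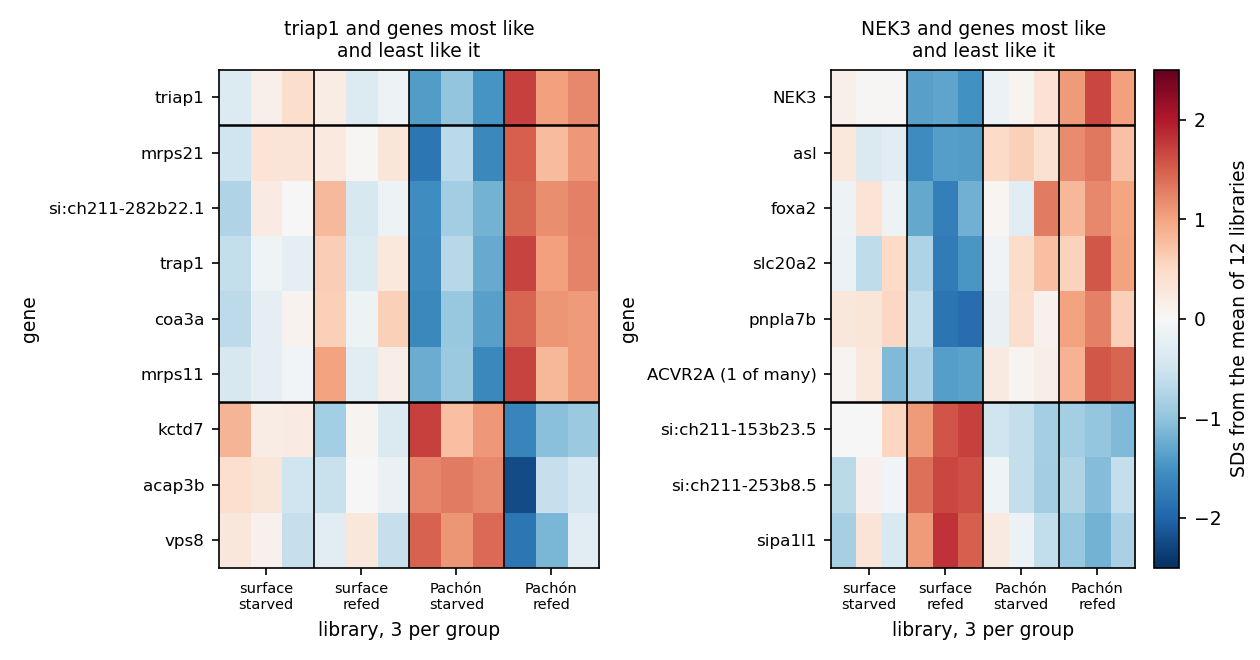
Profiles of triap1 (left) and NEK3 (right) over the 12 libraries (columns, 3 per group), each above the 5 genes most like it and the 3 least like it, as SDs of log2(TPM + 1) from the gene's own mean. The genes grouped with triap1 are low in starved and high in refed Pachón cavefish, with r of 0.94 to 0.96, and those grouped with NEK3 are low in refed surface fish, with r of 0.91 to 0.95.

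In the RefSeq gene order of the surface assembly AstMex3_surface, the nearest tested genes on either side of triap1 were srsf9, a splicing factor gene next to it, and git2b, with 1 gene between. The splicing factor gene srsf9 rose in cavefish, from 12.4 ± 0.711 to 32.8 ± 3.49 TPM, by 1.33 ± 0.32 (limma adjusted p = 0.00852). In surface fish it went from 12.8 ± 7.63 to 26.6 ± 5.79 TPM, by 1.12 ± 0.32 (limma adjusted p = 0.032), a call that ended without any of Surface_refed replicate 2 or 3 and Surface_starved replicate 1 or 3 (adjusted p up to 0.11). The difference between these changes was 0.21 ± 0.45 (limma adjusted p = 0.839). For git2b the changes were 0.0028 ± 0.18 in surface fish and -0.27 ± 0.18 in cavefish, neither called. Next to NEK3 were lpar6a, a receptor gene, with changes of 0.053 ± 0.51 and -0.54 ± 0.51, and, past 1 gene, the Golgi gene cog6, with -0.51 ± 0.26 and 0.15 ± 0.26, none of these changes called. Averaged over feeding states lpar6a was higher in cavefish by 1.55 ± 0.36 (limma adjusted p = 0.0097). Whether reads of neighbouring genes were told apart by strand is not given in the sources used here.

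Markers of other cell types were summed per library. For endothelium 12 of 13 marker symbols were listed, with none at 0 in all libraries, and the sums were 35.9 to 39.5 TPM in starved and 44.2 to 70.9 TPM in refed cavefish, the direction of triap1 and NEK3 there. Of the 12, 6 had a higher and 5 a lower mean in refed cavefish, with tek going from 6.56 to 14.3 TPM and stab1 from 3.63 to 2.01 TPM. In surface fish the endothelium sums were 30.2 to 35.6 TPM in starved and 36.9 to 50.9 TPM in refed libraries, opposite to NEK3, while triap1 overlapped there. For cholangiocytes 7 of 11 symbols were listed, with sums of 946 to 1394 TPM in starved and 600 to 937 TPM in refed cavefish, 443 to 2028 and 1197 to 1484 TPM in surface fish, and with cftr at 0.06 TPM or lower in every library. Most of these sums came from krt8, krt18 and anxa4, while sox9a was at 0.13 TPM or lower, so the sums are not read as a measure of cholangiocytes. Of the 7, 1 had a higher and 6 a lower mean in refed cavefish, with krt8 going from 482 to 274 TPM and epcam from 3.06 to 3.61 TPM. For testis and motile cilia 19 of 32 symbols were listed, with 15 at 0 in at least 1 library and 3 at 0 in all. The sums were 1.35 to 1.85 TPM in starved and 3.38 to 3.98 TPM in refed surface fish, opposite to NEK3. Most of this rise came from tppp2, from 1.1 to 2.23 TPM, and ccdc103, from 0.01 to 0.6 TPM. By contrast rsph4a went from 0.03 to 0 TPM in surface fish. In cavefish the sums were 6.17 to 8.15 and 4.84 to 9.09 TPM, which overlapped. Of the 19, 9 had a higher and 5 a lower mean in refed cavefish. The part of these cells in the levels of triap1 and NEK3 was not tested.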

How the data were processed

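Values were TPM per gene and library as deposited by the authors. The submitters' processing notes name STAR 2.6.1c, Bowtie2, RSEM and bcl2fastq 2.18, without their roles. Neither build, annotation nor strand handling is given in the sources used here. The 6 ChIP-seq libraries of the series were left out and not analysed here. The 12 RNA-seq libraries were grouped by their titles, and 0 of 66 pairs were identical. Where nothing says that libraries came from separate fish, p-values measure only the spread between these libraries.

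TPM are not counts, so log2(TPM + 1) was fitted with limma 3.58.1 in R 4.3.3: 4 group means, a mean-variance trend, 8 residual and 3.303 prior degrees of freedom. Tested were 13157 genes that reached 1 TPM in 3 libraries or more, with Benjamini-Hochberg adjustment over all of them and a threshold of 0.05. The fit was tested on simulated data, but the outcome is not given here and nothing is read from it. No further scaling was applied. Of 4024 cavefish meal calls 75% were higher, against 56.4% under median-of-ratios scaling and 53.3% under quantile normalization, and of 2461 surface calls 48.3%, against 60.1% rescaled without the 20 most abundant genes. For the 9 calls on the difference the share was 88.9%, against 46.2% and 44.4% under the first 2 of these scalings.

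The members, lists and tests were chosen with earlier results of these data known. Named genes are both members, the NEK family, up to 3 called members per list and meal comparison, the 5 most and 3 least correlated genes, nearest neighbours, and adjacent genes in the order of the difference; the text leaves out part of the list genes. Symbols were matched with case ignored. Neighbours come from RefSeq, matched by symbol for both genes. Sequences were not used here.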

Additional observations from a re-analysis of the deposited data

Results flagged for a closer look

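The change after the meal differed between the populations for NEK3, with a Pachón minus surface difference of 2.25 ± 0.26 on the log2(TPM + 1) scale. Every refed surface library was lower than every starved one (0.23 to 0.37 against 2.06 to 2.25 TPM), and every refed cavefish library was higher than every starved one (4.56 to 7.18 against 1.77 to 2.74 TPM). Of all tested genes, 17.8% had all refed libraries lower in surface fish, and 35.7% had all refed libraries higher in cavefish. For triap1 the difference was 2.30 ± 0.33, with overlapping surface libraries and with cavefish libraries that did not overlap. Both genes were chosen for this difference, so it is no independent support.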

How the results depend on the processing

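Depth is unknown from TPM, and NEK3 in refed surface fish lies at 0.37 TPM or lower, where the added constant sets the size of a log2 change. The surface, cavefish and difference values of NEK3 were -2.45, 1.26 and 3.71 with 0.1 TPM added. Its cavefish change was 0.77 under median-of-ratios scaling and 0.75 under quantile normalization. The difference was 1.99 and 1.86 under the same scalings and 2.51 after rescaling that left out the 20 most abundant genes. For triap1 the cavefish change was 1.76 under quantile normalization, and the difference was 1.98 under median-of-ratios scaling and 1.97 under quantile normalization. These scalings moved the median difference over all genes from 0.29 to 0.028 and 0.015. The averaged population difference of triap1 turned to -0.0082 with 0.1 TPM added, -0.022 under median-of-ratios scaling, -0.042 under quantile normalization and -0.062 with library weights, and ran from -0.061 to 0.10 with 1 library left out. That of NEK3 kept its call under every alternative that held the gene, and at 5 TPM or more in 3 libraries NEK3 was not tested. These calls reuse the values and residual spread that entered the choice of NEK3, so they are not free of that choice.

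NEK calls on the surface meal went from 0 to 1 with 0.1 TPM added and ranged from 0 to 1 with 1 library left out. At 5 TPM or more in 3 libraries, where 1 NEK gene was tested, NEK calls went to 0 for the cavefish meal and to 0 for the averaged population difference. List calls on the surface meal went from 23 to 15 under that filter, where 1710 of 7747 tested genes were called, against 2461 of 13157. On the cavefish meal list calls were 39, with 24 to 47 when 1 library was left out, the lowest without Pachon_refed replicate 1. Calls over all tested genes moved too. With 1 library left out they ran from 2769 to 4325 for the cavefish meal, the lowest in the same fit, and from 1406 to 2387 for the surface meal. List counts with a library left out are to be read beside these. Calls on the difference over all genes were 9, against 1 with 0.1 TPM added, 1 rescaled without the 20 most abundant genes, 0 at 5 TPM or more in 3 libraries, 21 with no filter, 18 under quantile normalization and 35 with library weights. Of the alternatives that left out no library, triap1 was past the threshold of the difference in 3 of 8 and NEK3 in 6 of 7. Both genes were chosen for this difference from the same values, so these counts give it no support. Surface calls over all genes were 2461, against 837 with only the 6 surface libraries and 1406 without Surface_refed replicate 3. Calls on the averaged population difference were 3023 of 13157 tested genes, against 1692 of 7747 at 5 TPM or more in 3 libraries, where fewer genes were tested. Of 51 calls of single list, NEK or neighbouring genes, 41 kept their side of the threshold under all alternatives and 10 did not. The cause of these changes was not tested.

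Library numbers 1 to 3 are shared by the groups. Deviations from the group mean of same-numbered starved and refed libraries correlated at -0.245 to -0.060, and those of differently numbered ones at -0.052 to 0.213. Deviations within a group of 3 depend on each other, so this does not settle whether the numbers pair libraries. With the replicate number as a block the difference was 2.30 ± 0.37 for triap1 and 2.25 ± 0.28 for NEK3. The block left 0 genes with a called difference, 2 NEK calls for the averaged population difference, and 20 and 33 list calls for the surface and cavefish meals. Over all tested genes it left 1911 and 3535 calls for these meals, against 2461 and 4024.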
